A study of Irpex lacteus with 14 samples.

Results

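Of 967 genes kept from the values deposited for Irpex lacteus mycelium, 44 (4.55%) stood lower on each of wheat straw, aspen and pine than on either cellulose or maltose. All genes below means these 967. How the deposited genes were chosen is not stated, so shares over all genes need not hold for the genome. Irpex lacteus is a white-rot fungus, a basidiomycete of the order Polyporales. The members were selected on the measured values themselves. The lower of a gene's cellulose and maltose values had to exceed the highest of its wheat straw, aspen and pine values by at least 0.5 on the log2 scale, a quantity called the gap here. A gene also needed a normalized log2 read count of at least 3.32, which is 10 normalized reads, on at least 2 of the 5 substrates. The lower levels on the plant materials are therefore what defined the group and are given as a description, with no test. The mirror rule, with each plant material at least 0.5 above both cellulose and maltose, held for 107 genes (11.1%).

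White-rot fungi break down lignin as well as the polysaccharides of plant cell walls, and they do so with secreted enzymes. On ground plant material the mycelium meets lignin, hemicellulose, cellulose and the small molecules of the plant together, whereas microcrystalline cellulose offers the polysaccharide alone and maltose is a readily used sugar. Fungi commonly express many genes for plant cell-wall breakdown at a low level while such a sugar is plentiful. The files identify each gene by a number of the Joint Genome Institute's MycoCosm portal and pair no number with a name or a function. No annotation of these numbers was used here, so no role is given for any gene, and no sequence is shown.

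The strain was CCBAS Fr. 238 617/93. Its flasks of 100 ml of liquid medium were shaken at 30 °C for 3 days. The groups were wheat straw (3 libraries), aspen (3), pine (2), cellulose supplied as Avicel (3) and maltose (3), 14 libraries in all, and all media shared the same salts, yeast extract and thiamin. Per litre, the straw, pine and cellulose cultures received 2.5 g of maltose with 15 g of solid. Aspen was likewise given at 15 g, but its maltose level cannot be read in the label. The cultures on maltose received 20 g of it and no solid. Fragments of straw and pine passed a 2 mm sieve, and aspen was Wiley-milled at 1 mm. Straw and pine thus match cellulose in stated sugar and load of solid, while against maltose the sugar level and the solid changed together and their effects cannot be told apart. Aspen differed from straw and pine in milling as well as in material, and possibly in sugar. In comparisons with aspen the effects of these cannot be told apart either.

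For each gene the deposited table gave 1 normalized log2 read count on each substrate and no spread between libraries. Library depth is unknown, no standard deviation, interval or p-value can be given for any gene, and whether a difference exceeds the spread between replicate cultures could not be tested. The RNA came from whole mycelium, so fewer cells expressing a gene and less RNA per cell cannot be told apart. The words higher and lower in the counts below stand for a log2 difference of at least 1, which is 2-fold. The median of all 967 genes lay at 8.61 on straw, 8.74 on aspen, 8.89 on pine, 8.52 on cellulose and 8.22 on maltose, so the columns are not on a common centre. The members ran against that drift, as the rule required of them. Their median lay at 6.11 on straw, 6.85 on aspen, 6.98 on pine, 7.97 on cellulose and 8.31 on maltose.

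**Figure D1:**
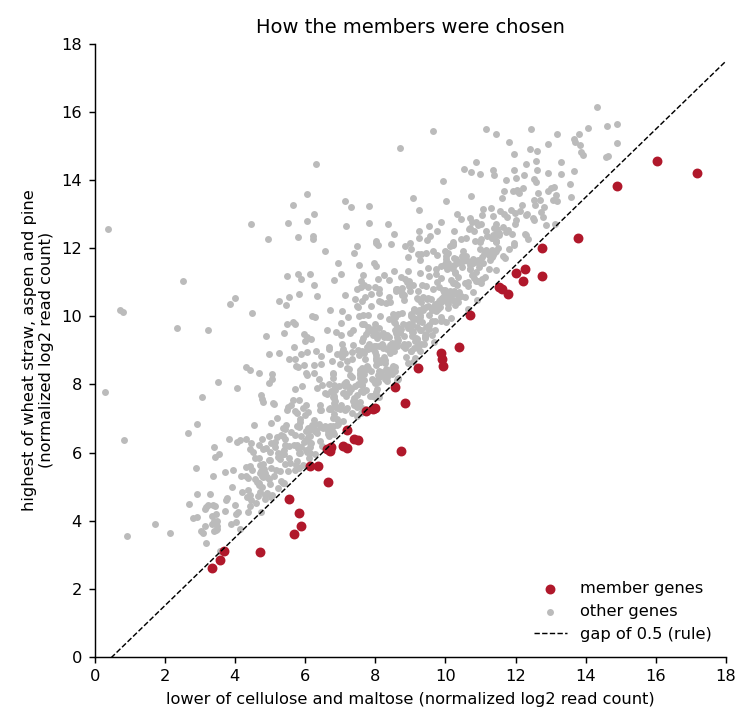
Each point is 1 of the 967 genes, with the lower of its cellulose and maltose values on the horizontal axis and the highest of its wheat straw, aspen and pine values on the vertical axis, both as normalized log2 read counts. The 44 red members lie at least 0.5 under the diagonal by construction, and they extend over most of the range of levels in the table.

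The size of the selected differences varied widely. The gap ran from 0.51 to 2.94 with a median of 0.90, against a median of -0.86 over all 967 genes. It was under 0.75 for 15 members, from 0.75 to under 1 for 10, from 1 to under 1.5 for 11, from 1.5 to under 2 for 4 and at least 2 for 4. The edge of the group is not a natural break: 7 members had a gap less than 0.1 above the limit of 0.5, and 15 further genes missed it by at most 0.1. Just inside were gene 1591109 with a gap of 0.51 and gene 52896 with 0.53. Just outside were gene 1462931 with 0.4998 and gene 573012 with 0.4986.

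Counted by substrate pair on the deposited scaling, the members were lower by 2-fold or more most often on pine and straw and least often on aspen. Against maltose, 37 of 44 members were at least 2-fold lower on straw, where 19.9% of all genes were, 33 on aspen (6.41% of all genes) and 39 on pine (9.41%). Against cellulose, 37 were at least 2-fold lower on straw (18.6% of all genes), 24 on aspen (8.79%) and 33 on pine (11.7%). Against maltose the order turned with the scaling: the count was 40 on straw, 42 on aspen and 44 on pine with quantile normalization, which gives every column the same distribution, and 43, 44 and 44 with centring of the columns on their medians. Against cellulose aspen kept the lowest count, with 35 on straw, 30 on aspen and 40 on pine after quantile normalization and 38, 32 and 42 after centring. The shares over all genes in this paragraph hold for the deposited scaling only, and the rescaled counts have no matching share beside them. The rule used all 6 contrasts, so these counts only describe the group. The comparisons with maltose share its value, as those with cellulose share theirs.

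The median difference of the members from maltose was -2.11 on straw, -1.61 on pine and -1.34 on aspen, where all genes had medians of 0.09 on straw, 0.43 on pine and 0.10 on aspen. From cellulose it was -1.98 on straw, -1.55 on pine and -1.08 on aspen, where all genes had 0.04 on straw, 0.31 on pine and -0.01 on aspen. In fold terms the median member lay below its cellulose level 3.95-fold on straw, with 2.11-fold on aspen and 2.94-fold on pine.

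**Figure D2:**
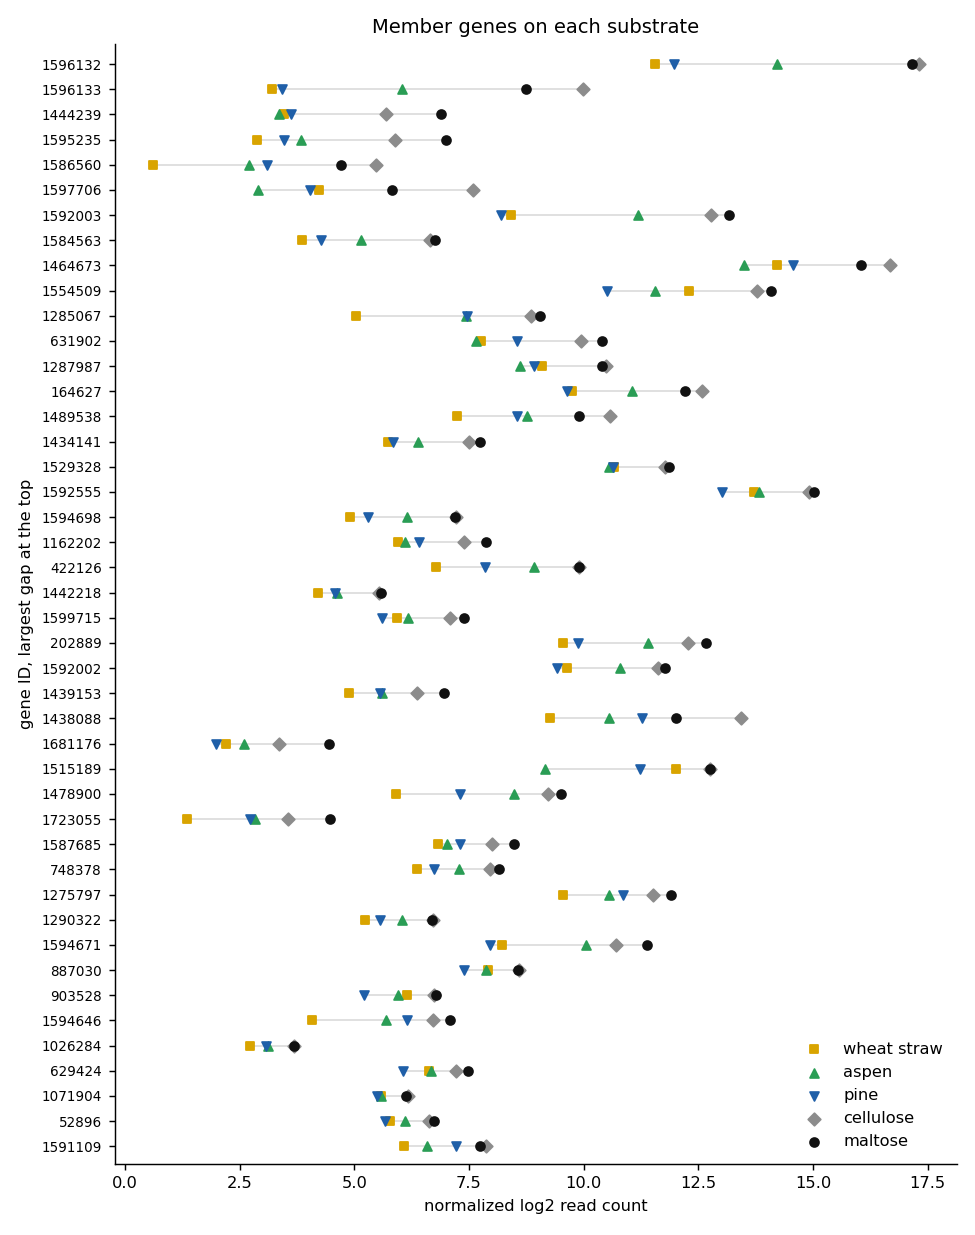
Normalized log2 read counts of the 44 members, a row for each gene ordered by gap, with a symbol for each substrate and a grey line over the gene's range. Cellulose and maltose lie to the right in every row by construction. The green aspen triangles often lie between the straw and pine symbols and the cellulose and maltose symbols, as for genes 1596132, 1596133 and 1592003.

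Gene 1596132 had the largest gap on the deposited scaling, 2.94. It stood at 11.55 on straw, 11.96 on pine and 14.22 on aspen, against 17.31 on cellulose and 17.16 on maltose. On aspen it was 8.50-fold below cellulose, on straw 54.4-fold and on pine 40.8-fold. Cellulose and maltose differed by 0.15 for this gene. With quantile normalization its gap was 1.44 and the difference of aspen from cellulose was -1.44, while that of straw was -5.03 and that of pine -4.59. The gap of gene 1596133 was then 3.32, and those of genes 1595235 (2.32) and 1586560 (2.15) also exceeded that of 1596132.

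Gene 1596133, whose ID number is the next one, followed the same order at a much lower read count. It was at 3.21 on straw, 3.43 on pine and 6.04 on aspen, against 9.98 on cellulose and 8.74 on maltose. The difference of straw from cellulose was -6.78 and that of pine -6.55. Both rest on values near 10 normalized reads, and with 8 added to every linear value they came to -5.89 and -5.76. This gene was also 2.37-fold higher on cellulose than on maltose, which gene 1596132 was not.

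A second pair of members with consecutive numbers was 1592002 and 1592003. Gene 1592003 was at 8.42 on straw, 8.19 on pine and 11.18 on aspen, against 12.77 on cellulose and 13.16 on maltose. Gene 1592002 was at 9.63 on straw, 9.41 on pine and 10.80 on aspen, against 11.61 on cellulose and 11.77 on maltose. Both were lowest on pine and straw and intermediate on aspen, and the differences were larger for gene 1592003, which was 23.8-fold lower on pine than on cellulose where gene 1592002 was 4.57-fold lower.

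The table held 16 pairs of consecutive ID numbers, made up of 30 genes. Of these pairs, 2 had both genes among the members and 1 had a single member: gene 1596134, which is no member and is named only because it follows 1596133, was at 9.39 on straw, 9.16 on pine and 8.43 on aspen, against 9.02 on cellulose and 8.25 on maltose, with a gap of -1.14. The lower values on plant material thus stopped at 1596133 in that run of numbers. Consecutive numbers are a property of the catalogue, and whether these genes are neighbours in the genome was not examined. Reads shared between near-identical genes also cannot be assessed from this table.

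**Figure D3:**
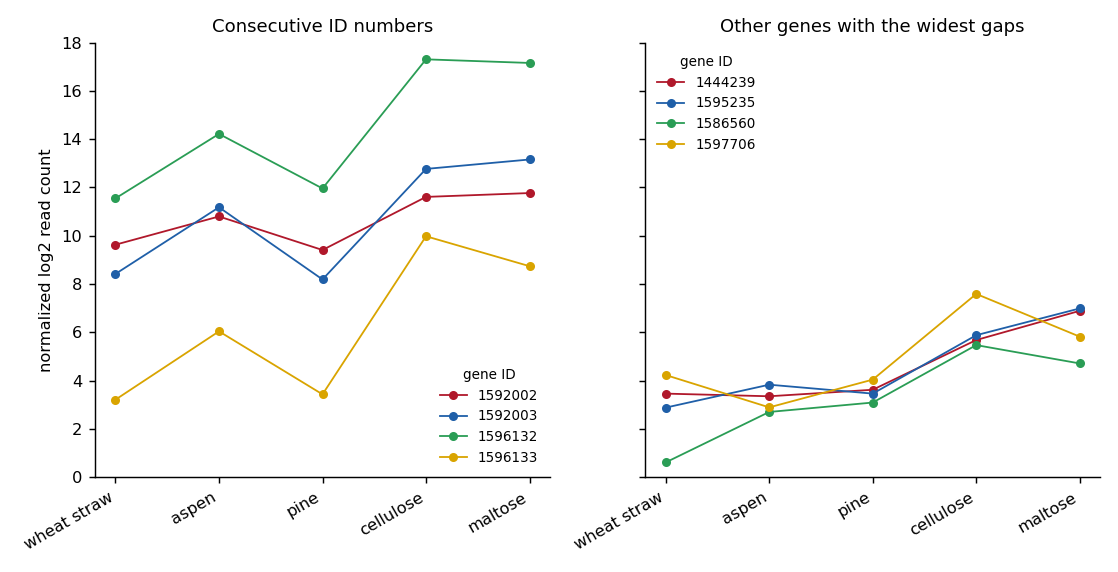
Normalized log2 read counts on the 5 substrates for the 4 members with consecutive ID numbers (left) and for the other 4 of the 6 members with the largest gaps (right); lines only join the points of a gene. The 4 genes on the left share a peak on aspen among the plant materials, and the 4 on the right lie at low read counts, under 8 on every substrate.

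The other members with the largest gaps had low read counts. Gene 1444239 was nearly level over the plant materials, at 3.46 on straw, 3.62 on pine and 3.35 on aspen, against 5.68 on cellulose and 6.89 on maltose. Gene 1595235 was at 2.88 on straw, 3.46 on pine and 3.83 on aspen, against 5.88 on cellulose and 6.99 on maltose. These were also the members that were lowest on cellulose relative to maltose, by 1.21 and 1.11 on the log2 scale, so for them part of the distance from maltose was already present on cellulose.

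Gene 1586560 was at 0.61 on straw, 3.09 on pine and 2.70 on aspen, against 5.47 on cellulose and 4.71 on maltose. Its value on straw corresponds to under 2 normalized reads, and the difference of -4.86 between straw and cellulose came to -2.45 with 8 added. Gene 1597706 was at 4.23 on straw, 4.04 on pine and 2.89 on aspen, against 7.59 on cellulose and 5.82 on maltose. It had the widest excess of cellulose over maltose among the members, 3.39-fold, and on aspen it was 25.9-fold below cellulose and 7.62-fold below maltose. Its aspen value is under 10 normalized reads, and with 8 added these log2 differences came to -3.70 and -2.07.

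The rule named no order among the 3 plant materials, but it required the highest of them to lie low. Over all genes, values at least 2-fold below maltose were rarest on aspen (6.41%, against 19.9% on straw and 9.41% on pine). Selection for low values on all 3 may thus by itself favour members with aspen highest. The shares over all genes are therefore no neutral baseline. The counts were unlike those of the table as a whole, although no test of this was possible. Straw was the lowest of the 3 for 24 members, pine for 13 and aspen for 7. Over all genes straw was the lowest for 42.0%, aspen for 40.5% and pine for 17.5%. Aspen was the highest of the 3 for 25 members (56.8%), against 28.6% of all genes. With quantile normalization pine was the lowest for 22 members, straw for 14 and aspen for 8, and aspen was the highest for 21. The shares over all genes given here hold for the deposited scaling only, so these rescaled counts have no matching share beside them.

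Pairwise differences showed the same position of aspen, with the same limit on the shares over all genes as a baseline. On straw, 2 members were at least 2-fold higher than on aspen (15.4% of all genes) and 18 were at least 2-fold lower (17.2% of all genes), with a median of -0.68 over the members and 0.01 over all genes. On aspen, 10 members were at least 2-fold higher than on pine (7.03% of all genes) and 3 were lower (20.1% of all genes), with medians of 0.40 and -0.23. The members were thus mostly higher on aspen than on pine, while the table as a whole leaned the other way.

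Straw and pine lay within 2-fold of each other for 33 members, a share not far from the 69.3% of all genes. On straw, 1 member was at least 2-fold higher than on pine (8.69% of all genes) and 10 were at least 2-fold lower (22.0% of all genes). The median difference of -0.33 over the members was close to the -0.34 of all genes. It turned to 0.18 with quantile normalization, so no order of straw and pine is given for the group as a whole.

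**Figure D4:**
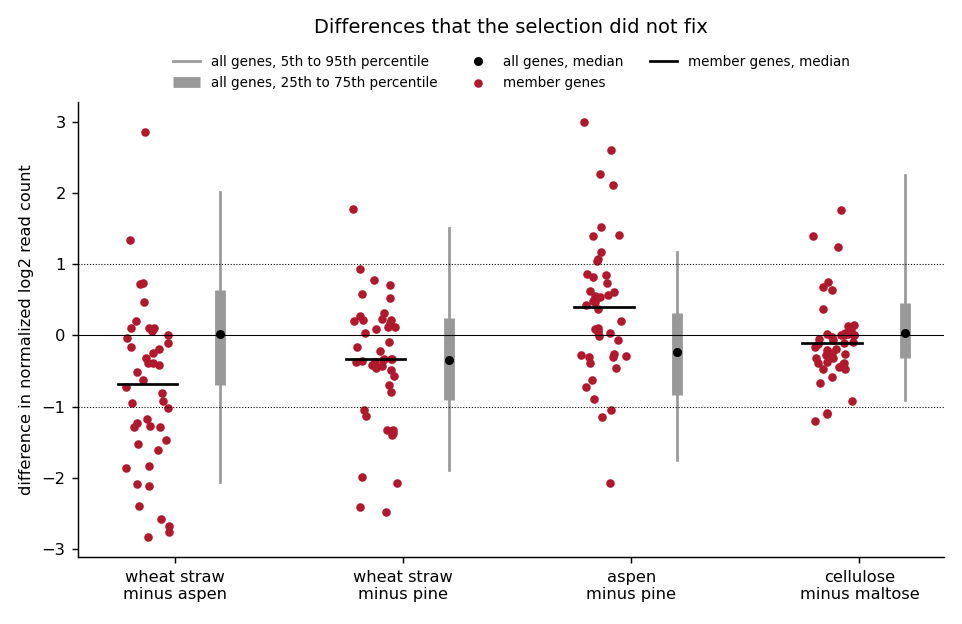
Differences in normalized log2 read count for the 44 members (red points, black line at their median) beside all 967 genes (grey bars from the 25th to the 75th percentile, thin lines from the 5th to the 95th, black point at the median), with dotted lines at a 2-fold difference. The members lie mostly below 0 for wheat straw minus aspen (median -0.68) and mostly above 0 for aspen minus pine (median 0.40), and close to 0 for cellulose minus maltose (median -0.11).

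Sorted by differences of at least 2-fold, the members fell into a few shapes over the plant materials. The values on straw, aspen and pine lay within 2-fold of each other for 21 members (47.7%), much the share found over all genes (47.4%). For 9 members (20.5%, against 4.65% of all genes) aspen was at least 2-fold above both straw and pine. For 7 (15.9%, against 8.79%) straw was at least 2-fold below both woods. Aspen was the low one for 2 (4.55%, against 7.14%) and pine for 1 (2.27%, against 1.24%). A further 4 (9.09%, against 18.5%) were graded, with a 2-fold difference but no material set apart from both others. No member had pine at least 2-fold above both others (6.93% of all genes), and none had straw so (5.38%). These shapes were defined after the values were seen, and the shares over all genes are no neutral baseline for them either.

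The 9 members with aspen at least 2-fold above both straw and pine were genes 164627, 202889, 422126, 1478900, 1592002, 1592003, 1594671, 1596132 and 1596133. Their lower value among cellulose and maltose ran from 8.74 to 17.16, so none of them was a gene of low count on those substrates. Aspen exceeded the higher of straw and pine by 1.08 to 2.76 in them. Their median difference from cellulose was -3.11 on straw and -2.76 on pine but -0.98 on aspen. Their number was 9 with 8 added, with quantile normalization and with centring of the columns. The filters could not change this number. They alter no value, and all of these genes were at 8.74 or more on both cellulose and maltose.

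The 7 members with straw at least 2-fold below both woods were genes 1275797, 1285067, 1438088, 1489538, 1586560, 1594646 and 1723055. In them straw lay 1.02 to 2.40 below the lower of the woods. Gene 1285067 was at 5.04 on straw, 7.45 on pine and 7.44 on aspen, against 8.86 on cellulose and 9.05 on maltose, 14.1-fold lower on straw than on cellulose, while the woods were 2.67-fold (aspen) and 2.65-fold (pine) lower. Gene 1438088 was at 9.27 on straw, 11.27 on pine and 10.54 on aspen, against 13.42 on cellulose and 12.02 on maltose, and was 2.63-fold higher on cellulose than on maltose. Genes 1586560 and 1723055 rest on straw values of 0.61 and 1.36. With 8 added, their differences of straw from aspen came to -0.60 and -0.52, and those from pine to -0.79 and -0.47, all under 2-fold. The number with this shape was 5 with 8 added and 5 with a stricter minimum of 5. It was 4 with quantile normalization and 6 with centring of the columns.

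Members with a low value on a single wood were few. Gene 1515189 was at 12.01 on straw, 11.22 on pine and 9.15 on aspen, against 12.76 on both cellulose and maltose. On aspen it was 12.2-fold below cellulose but on straw only 1.68-fold, the reverse of the more common order. Gene 1597706, described above, shared that order at low read counts. With 8 added, its straw minus aspen came to 0.80 and its aspen minus pine to -0.66, both under 2-fold. Gene 1554509 was the only member at least 2-fold lower on pine than on both of the others, at 12.29 on straw, 10.51 on pine and 11.56 on aspen, against 13.77 on cellulose and 14.09 on maltose. On pine it was 9.55-fold below cellulose, and on straw 2.79-fold.

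The 4 graded members were genes 1464673, 1584563, 1591109 and 1594698. Gene 1464673 was at 14.21 on straw, 14.55 on pine and 13.49 on aspen, against 16.67 on cellulose and 16.04 on maltose. On aspen it was 9.07-fold below cellulose and on pine 4.37-fold, and its order of the woods is uncertain, since the difference of aspen from pine of -1.06 turned to 0.22 with quantile normalization. Gene 1591109, at the edge of the group, was at 6.08 on straw, 7.22 on pine and 6.59 on aspen, against 7.87 on cellulose and 7.73 on maltose.

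The 21 members that were even over the plant materials had gaps from 0.53 to 2.06. They were genes 52896, 629424, 631902, 748378, 887030, 903528, 1026284, 1071904, 1162202, 1287987, 1290322, 1434141, 1439153, 1442218, 1444239, 1529328, 1587685, 1592555, 1595235, 1599715 and 1681176. Their median differences from cellulose were -1.18 on straw, -1.20 on pine and -0.90 on aspen. Gene 903528 was at 6.15 on straw, 5.22 on pine and 5.95 on aspen, against 6.74 on cellulose and 6.77 on maltose. Gene 52896 was at 5.78 on straw, 5.67 on pine and 6.10 on aspen, against 6.63 on cellulose and 6.73 on maltose. In both genes cellulose and maltose lay within 0.11 of each other.

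Among these even members were also those with the lowest values on maltose. Gene 1681176 was at 2.21 on straw, 1.99 on pine and 2.60 on aspen, against 3.35 on cellulose and 4.44 on maltose, and its gap of 0.75 came to 0.37 with 8 added. Gene 1026284 was at 2.73 on straw, 3.07 on pine and 3.12 on aspen, against 3.69 on cellulose and 3.68 on maltose, and its gap of 0.56 came to 0.32. At such counts a gap depends on what is added before the logarithm. Of the 44 members, 37 were at or above 3.32 on every substrate, and 6 fell under it on straw, 5 on aspen and 4 on pine. The filter let a member pass on its cellulose and maltose values alone, since none of the 44 was under 3.32 there.

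Cellulose and maltose lay within 2-fold of each other for 38 members (86.4%), near the 83.7% of all genes. On cellulose, 3 members were at least 2-fold higher than on maltose (12.5% of all genes) and 3 were at least 2-fold lower (3.83% of all genes). The median difference was -0.11, against 0.03 over all genes. The rule did not set which of the 2 was higher, but it required the lower of them to be high. The shares over all genes may thus be no neutral baseline here either. Maltose held the higher value for 27 members (61.4%, against 47.4% of all genes) and cellulose for 17 (38.6%, against 52.6%). The 3 higher on cellulose were genes 1597706, 1438088 and 1596133, and the 3 lower were genes 1444239, 1595235 and 1681176.

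The members held a large part of the reads of the table on cellulose and maltose and a small part on the plant materials. Their summed linear values made up 2.63% of the sum over the 967 genes on straw, 2.05% on pine and 4.71% on aspen, against 20.5% on cellulose and 21.2% on maltose. Gene 1596132 alone accounted for 0.149% on straw, 0.157% on pine and 1.35% on aspen, against 9.04% on cellulose and 9.76% on maltose. Gene 1464673 accounted for 0.946% on straw, 0.944% on pine and 0.814% on aspen, against 5.82% on cellulose and 4.48% on maltose. The remaining 42 members together held 1.54% on straw, 0.948% on pine and 2.55% on aspen, against 5.65% on cellulose and 7.00% on maltose. Because the rule set every member lower on the plant materials, the smaller shares there largely follow from the selection and only describe the group. These are shares of reads among the listed genes, not of transcripts, since gene lengths were not used and the table need not cover the genome. With quantile normalization the members held 2.50% on straw, 2.01% on pine and 4.96% on aspen, against 13.4% on cellulose and 14.7% on maltose.

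**Figure D5:**
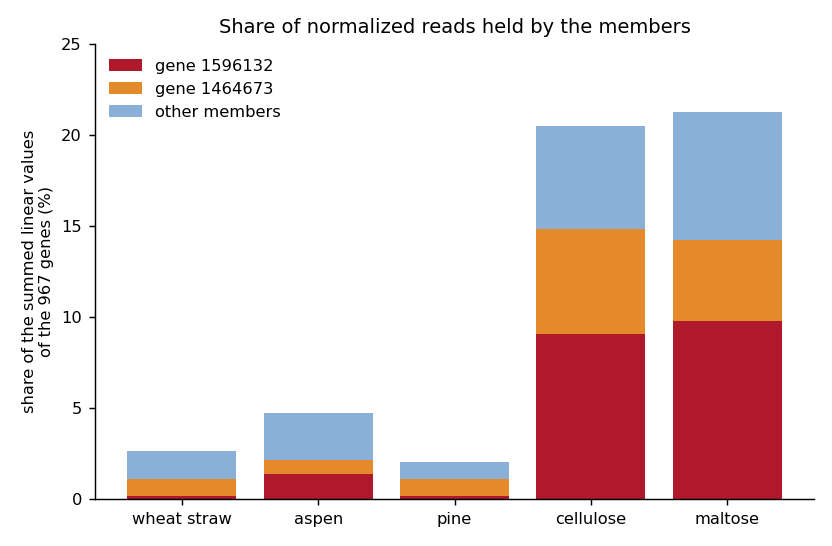
Bars give the share, in percent, of the summed linear values of the 967 genes held by gene 1596132, gene 1464673 and the other 42 members on each substrate. The stacked bars reach 2.63% on wheat straw, 2.05% on pine and 4.71% on aspen, against 20.5% on cellulose and 21.2% on maltose.

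Aspen was also the plant material that most limited membership. Leaving straw out of the rule gave 47 genes, leaving pine out gave 66 and leaving aspen out gave 93. The 49 genes that were added without aspen had a median difference of -0.03 between aspen and the lower of cellulose and maltose, and aspen was above that lower value for 22 of them and at or below it for 27. The 22 genes added without pine had the same median, -0.03, for pine, with 9 above the lower value and 13 at or below it. For the 3 genes added without straw the median for straw was -0.42. By the other choice, the rule gave 84 genes without the maltose value and 93 without the cellulose value, so the requirement on both removed many genes.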

How the data were processed

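Messenger RNA was sequenced from mycelium on 5 substrates. Per the labels' protocols, the libraries came from polyadenylated RNA and were read from both ends. Per the file headers, the values that the authors deposited are normalized log2 read counts, 1 for each gene on each substrate. The submitters' processing notes name TopHat2, HTSeq and DESeq (version 1.5) with no role. Not given in the sources used here are the genome build, strand setting, size factors, any added value and how libraries were combined.

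Of 1000 rows, 23 repeated another row exactly and were dropped, leaving 977 genes. Requiring 3.32 on at least 2 substrates removed 10 genes, of which 2 met the gap of 0.5. Differences of log2 values, counts and shares of back-transformed values were computed with Python 3.11.15, pandas 2.3.3 and numpy 2.4.6, and plotted with matplotlib 3.10.9. The functions were tested on simulated data. With 1 value per substrate no test could be fitted, so a size of 1 (log2) was used.

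The members, shapes and alternatives were chosen with earlier results of these data known. Alternatives were no filter, a minimum of 5, 8 added to linear values, quantile normalization, centring on the median, a gap of 1, and the rule without each substrate. The 18 members described by value are those with the largest gaps or differences, the highest and lowest on maltose, consecutive IDs, or a gap nearest the limit.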

Additional observations from a re-analysis of the deposited data

How the results depend on the processing

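No paired analysis was possible because the table holds 1 value per substrate and no column for a replicate. For the same reason no replicate could be left out. The number of genes meeting the rule depended on the scaling of the columns and on the rule: it was 90 with centring, which kept all 44, and 69 with quantile normalization, which kept 38. It was 46 with no filter, 40 with the stricter minimum and 38 with 8 added. A gap of 1 gave 19 genes, and the rule gave 93 without aspen, 93 without cellulose and 84 without maltose. Over the fixed 44 members, counts of genes at least 2-fold lower on a plant material than on cellulose or maltose were compared across settings. Each stayed within 1.5 times its value with 8 added, quantile normalization and centring, and over the 40 that the stricter minimum kept. Dropping the filter could not change these counts, since it alters no value of the 44. Small counts moved more: with 8 added, 1 member was higher on straw than on aspen. With quantile normalization, straw was the higher for 2 members and the lower for 5 in the comparison with pine, and with centring it was the higher for 3. The 18 members described by value had 113 differences past 2-fold between substrates, of which 1 changed sign: aspen minus pine of gene 1464673, at 0.22 with quantile normalization. Of their 18 gaps, 4 dropped under 0.5 with 8 added and 3 with quantile normalization. The cause of these changes was not tested. Depth and replicate spread are unknown, so values near 10 normalized reads carry an error that cannot be given.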
